A study of Enchytraeus crypticus with 60 samples.

Results

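Adults of the soil worm *Enchytraeus crypticus*, a small white oligochaete used in tests of soil quality, were kept for 7 d in soil that held silver particles with a polyvinylpyrrolidone shell, labelled Ag-NPs PVP-Coated. The concentrations were those that lower reproduction by 20% (EC20) and by 50% (EC50). The arrays were taken by group label, without the use of their values in the rule, as the groups Ag-NPs PVP-Coated EC20 7d and Ag-NPs PVP-Coated EC50 7d with 3 arrays each and the un-spiked soil of the same time, CT 7d, with 3 arrays, which makes 9 of the 60 arrays of the study. All 9 held total RNA of whole worms, pooled from 20 adults with a developed clitellum, the ring of skin that marks a mature worm. All worms lived in the same natural standard soil, LUFA 2.2, without food during the exposure. A further silver-free group, soil with the dispersant of another silver material (CTdisp 7d, 3 arrays), served as a comparison of 1 control with another. A pool averages over its worms, and with whole worms a change in the RNA of a tissue cannot be told apart from a change in the amount of that tissue.

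Polyvinylpyrrolidone is a water-soluble polymer that coats metal particles and keeps them from clumping. Silver particles release silver ions as they dissolve, and both the ions and the particles can enter a soil worm through the skin and the gut. Silver ions bind to the sulphur of proteins, and worms exposed to metals are known for the production of metal-binding proteins, chaperones and antioxidant enzymes. Which probes belong to such genes could not be told, because the files pair each probe with the identifier of a contig (a transcript assembled from several reads) or of a single sequencing read, and with no gene name. Each of these transcripts had 1 probe.

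Of the 43750 gene probes, 23179 (53.0%) were above background on all 60 arrays and were analysed, 11180 for contigs and 11999 for single reads. Expression levels are given as log2 of the background-corrected signal after normalization, and a probe is called a differentially expressed gene (DEG) where its limma p, adjusted over all 23179 probes, passed a false discovery rate of 5%. A log2 fold change of 1 is a doubling. The EC50 arrays had median signals of 19.3 to 25.3 and the EC20 arrays of 19.6 to 31.4, against 11.5 to 16.8 for CT 7d. Between 55.6% and 70.3% of the probes were well above background on the EC50 arrays and 54.8% to 85.4% on the EC20 arrays, against 46.0% to 51.0% on the CT 7d arrays. EC20 replicate 1 stood apart, with 97.7% of its probes above background. The log2 levels of the arrays of a group correlated across probes at 0.974 to 0.992 for EC20, 0.976 to 0.988 for EC50 and 0.975 to 0.980 for CT 7d. EC20 replicates 2 and 3, which shared a slide, were the most alike.

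The placing of the arrays bears on every comparison. The 3 EC20 arrays were on 2 slides scanned on 1 day, and no CT 7d or EC50 array shared a slide or a scan day with them. Within these arrays the effect of EC20, and the difference of EC50 from EC20, cannot be told apart from slide and scan day. EC50 replicates 1 and 3 were each on a slide that also held a CT 7d array, and EC50 replicate 2 was read on another day by another scanner. EC20 replicates 2 and 3 were on the same slide and replicate 1 on another. The main model took all arrays as independent, while a model with slide as a random block estimated a correlation of 0.354 within a slide.

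At EC50, 1745 of 23179 probes (7.53%) were DEGs against CT 7d. Of these 1270 (5.48% of all probes) were over-expressed and 475 (2.05%) under-expressed. The median over-expressed DEG was 1.81-fold higher and the median under-expressed DEG 1.86-fold lower, 627 DEGs changed by more than 2-fold and 65 by more than 4-fold. The median log2 fold change of all probes was 0.0961, so that the share of over-expressed DEGs, 72.8%, includes a shift of the whole distribution. After Median normalization, which removes that shift, there were 1193 DEGs and 50.6% of them were over-expressed, in place of 72.8%. That share was 55.3% after Quantile, 46.6% after 75th percentile, 64.7% after MedianCD and 5.95% after spike-in scaling, so no direction prevailed under every scaling. Under 5 scalings (SVCD, MedianCD, Median, Quantile and 75th percentile) 963 DEGs were called with the same sign, 526 over-expressed and 437 under-expressed. Spike-in scaling, which is not among these 5, gave 84 DEGs in all.

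At EC20, 414 probes (1.79%) were DEGs against CT 7d, 271 (1.17%) over-expressed and 143 (0.617%) under-expressed. Their median changes were 2.00-fold higher and 1.95-fold lower, with 200 DEGs beyond 2-fold and 27 beyond 4-fold. The median log2 fold change of all probes was 0.0466. After Median normalization 319 probes were called, 50.2% of them over-expressed, in place of 65.5%. That share was 49.6% after Quantile, 50.6% after 75th percentile, 91.8% after MedianCD and 27.3% after spike-in scaling, so no direction prevailed under every scaling. Of the 414 DEGs, 205 were called with the same sign under the same 5 scalings as at EC50, 120 higher and 85 lower. Spike-in scaling, which is not among these 5, gave 11 DEGs in all.

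**Figure D1:**
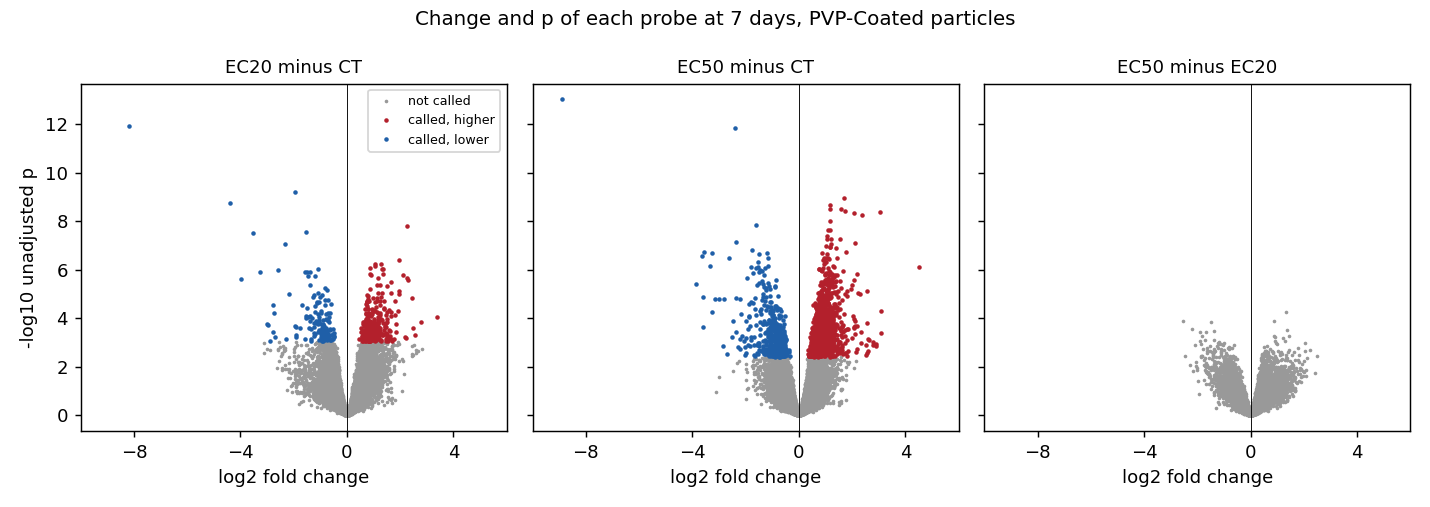
Log2 fold change (x axis) against -log10 of the unadjusted p (y axis) of the 23179 probes for EC20 minus CT, EC50 minus CT and EC50 minus EC20 at 7 d, with DEGs in colour. There are 414 coloured probes in the panel of EC20, 1745 in that of EC50 and 0 in that of the difference, and 1 under-expressed probe lies beyond -8 at both doses.

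Both counts depended on single arrays. The EC50 count was 860 without EC50 replicate 1, 3050 without EC50 replicate 2, 727 without EC50 replicate 3 and 880 without CT 7d replicate 3, and 341 of the 1745 DEGs kept their call in each of the 6 omissions, 237 higher and 104 lower. With replicate 3 left out, 45.3% of the calls were over-expressed, and with replicate 2 left out, 90.1%. The EC20 count was 244 without EC20 replicate 1, 139 without replicate 2, 207 without replicate 3 and 123 without CT 7d replicate 1, and 57 of the 414 DEGs were called in each omission, 31 higher and 26 lower. Without CT 7d replicate 3, 42.7% of the EC20 calls were over-expressed.

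The probes named next had the 2 largest changes in each direction at each dose among DEGs with all 6 arrays well above background, no outlier spot and no overlap between the groups, so a DEG with a larger change that missed one of these conditions is not named. The probe with the largest change at both doses was CUST_31050_PI427420766_b, for the single read GYUW2K401DLXG6. Its normalised log2 signals were 14.61, 13.11 and 14.12 in CT 7d, 5.11, 5.74 and 6.46 at EC20, and 5.26, 5.84 and 4.09 at EC50. The 6 exposed arrays lay far below the 3 control arrays, and the doses overlapped. The log2 fold change was -8.88 ± 0.83 (SE) at EC50, with a limma adjusted p of 2.19e-09, and -8.18 ± 0.83 at EC20, with 2.84e-08. At EC50 the mean signal was 472-fold lower than in CT 7d. The 3 arrays of CTdisp 7d gave 12.88, 13.60 and 14.14, near CT 7d.

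The second under-expressed probe by this rule at EC20 was CUST_16326_PI427420766_b, for contig14604. It read 4.03, 3.75 and 4.07 at EC20, against 8.22, 8.51 and 8.26 in CT 7d, where the replicates of each group were close together. The log2 fold change was -4.38 ± 0.577 (SE), a 20.8-fold lower mean, with a limma adjusted p of 1.31e-05. At EC50 the same probe read 4.29, 5.88 and 4.09, with replicate 2 above the other two, and the log2 fold change was -3.58 ± 0.577 with a limma adjusted p of 0.000147.

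The second under-expressed probe by this rule at EC50 was CUST_4770_PI427420766_b, for contig00698, with 4.73, 4.32 and 3.17 at EC50, against 8.47, 7.30 and 7.27 in CT 7d. All 3 EC50 arrays were below all 3 control arrays. Its log2 fold change was -3.61 ± 0.735 (SE) at EC50 (limma adjusted p = 0.00171), a 12.2-fold lower mean. It was -3.01 ± 0.735 at EC20 (0.0229), where the arrays read 4.52, 4.27 and 5.20.

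The largest over-expression at both doses was that of CUST_10724_PI427420766_b, for contig19694. Its log2 signals were 8.10, 7.11 and 8.32 in CT 7d, 11.34, 12.01 and 10.35 at EC20, and 11.79, 12.80 and 12.52 at EC50. No exposed array overlapped the control arrays, and the EC20 and EC50 arrays overlapped each other. The log2 fold change was 4.53 ± 0.785 (SE) at EC50, a 23.1-fold higher mean, with a limma adjusted p of 0.000337, and 3.39 ± 0.785 at EC20 with 0.0165. The silver-free groups differed here, since CTdisp 7d read 10.38, 7.87 and 8.51, and its replicate 1 reached the lowest EC20 array. Against CTdisp 7d the log2 fold changes were 3.45 at EC50 (limma adjusted p = 0.0042) and 2.31 at EC20 (0.118). With slide as a fixed block the EC20 value was 1.99 and its limma adjusted p 0.331, which ends the call.

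Next by this rule among the over-expressed probes at EC50 was CUST_24211_PI427420766_b, for the single read GYUW2K401DLQ92, with 8.94, 9.18 and 7.79 at EC50, against 5.09, 5.64 and 5.93 in CT 7d. The log2 fold change was 3.08 ± 0.682 (SE), an 8.46-fold higher mean, with a limma adjusted p of 0.00363. At EC20 the arrays read 7.67, 8.91 and 7.78, with replicates 1 and 3 just below the lowest EC50 array, and the log2 fold change was 2.57 ± 0.682 (limma adjusted p = 0.0375). CTdisp 7d read 4.95, 4.60 and 4.60, lower than CT 7d.

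At EC20 the second over-expressed probe was CUST_27080_PI427420766_b, for the single read GYUW2K402FTC05, with 9.03, 10.72 and 9.10 at EC20, against 7.06, 6.64 and 6.86 in CT 7d. The control arrays were close together and EC20 replicate 2 was well above the others. The log2 fold change was 2.77 ± 0.665 (SE), a 6.81-fold higher mean, with a limma adjusted p of 0.021. At EC50 it read 10, 9.69 and 7.85 and the log2 fold change was 2.33 ± 0.665 (limma adjusted p = 0.0234). With slide as a fixed block the EC20 value was 1.94 with a limma adjusted p of 0.269.

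**Figure D2:**
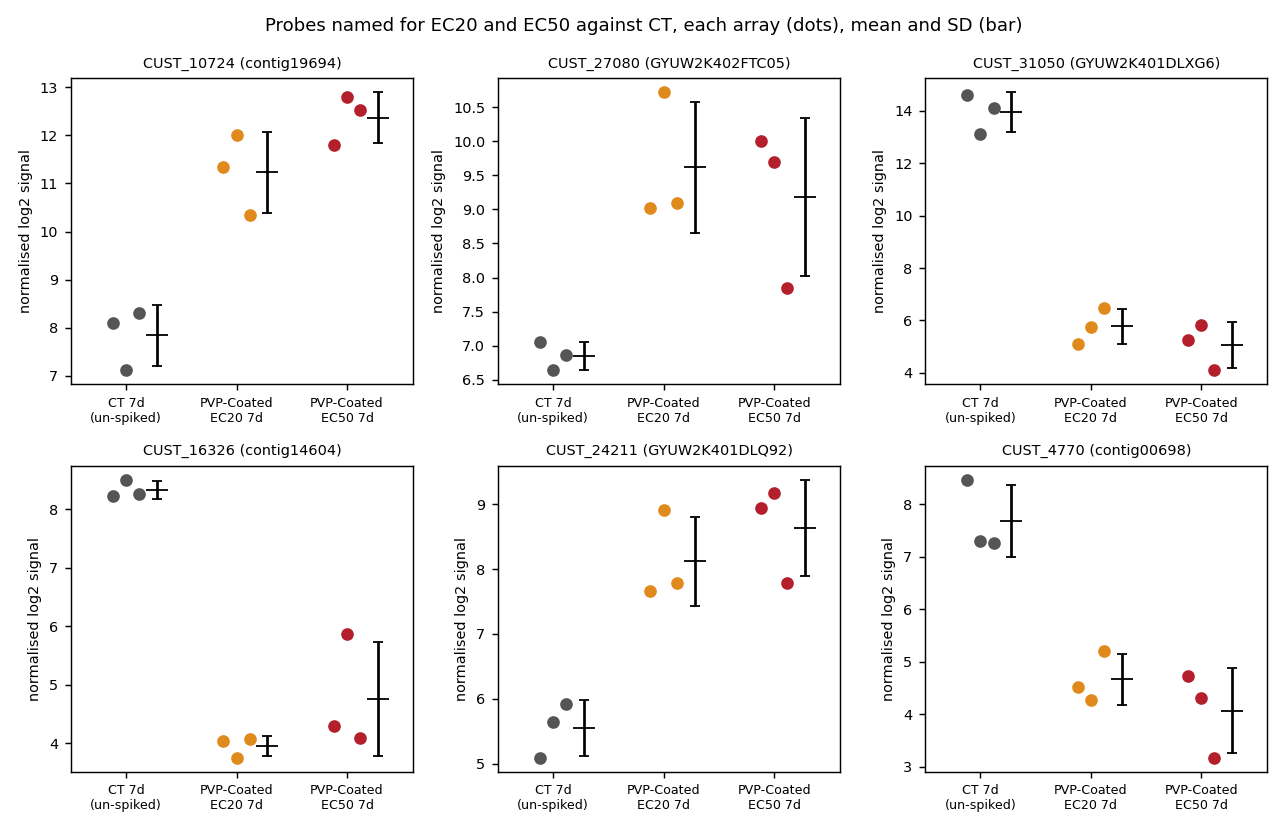
Normalised log2 signal (y axis) on each array of CT 7d, EC20 and EC50 (x axis) for the 6 probes named by the rule, with dots for arrays and a bar for the mean and SD (n = 3). In all 6 panels the EC20 and EC50 arrays lie apart from the CT 7d arrays and on the same side of them.

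The pairs on shared slides allowed EC50 to be set against CT 7d within a slide. On the slide of EC50 replicate 1 and CT 7d replicate 1, 1734 of 1743 DEGs that were measured had the sign of the DEG call (99.5%, against 78.7% of all probes). On the slide of EC50 replicate 3 and CT 7d replicate 2 it was 1741 of 1745 (99.8%, against 83.0%). These 4 arrays are part of the comparison that gave the calls, so the shares describe its arrays and are no separate evidence. Within these slides CUST_31050_PI427420766_b differed by -9.34 and -9.03 on the log2 scale and CUST_10724_PI427420766_b by 3.69 and 5.40. With slide as a fixed block over all 60 arrays there were 3852 DEGs at EC50, which included 1708 of the 1745. With scan day as a fixed block there were 2644, which included 1636. At EC20, the block for slide gave 585 DEGs, with 142 of the 414 among them, and that for scan day 445, with 269 of the 414. Of the EC20 calls with slide as a block, 43.8% were over-expressed.

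The next question was how far both doses agreed. Of the 414 DEGs at EC20, 311 were also DEGs at EC50, all 311 with the same sign, 207 higher and 104 lower, and 0 were called with opposite signs. This was 75.1% of the EC20 DEGs and 17.8% of the EC50 DEGs. Both counts use the same 3 control arrays, whose deviations enter both comparisons alike. Of the 311, 150 (48.2%) were called at both doses under all 5 scalings, and 47 (15.1%) with each array left out in turn. The number of DEGs common to both doses also depended on the scaling. It was 584 after MedianCD, where EC20 had 1196 DEGs, 214 after Median, 243 after Quantile, 252 after 75th percentile and 10 with spike-in scaling. The 311 probes had a median absolute log2 fold change of 1.06 at EC50 and 0.956 at EC20. A further 1434 probes were DEGs at EC50 only, with medians of 0.830 at EC50 and 0.533 at EC20, and 1010 of these had an unadjusted limma p below 0.05 at EC20, as did 3932 of all 23179 probes. The 103 probes called at EC20 only had medians of 0.552 at EC50 and 1.08 at EC20, and 61 had an unadjusted limma p below 0.05 at EC50, as did 4992 of all probes. In each set the dose that made the call has the larger median, as the choice by that dose brings with it.

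The doses were also compared without a shared control, by setting EC50 against CTdisp 7d. The 2 control groups themselves gave 0 DEGs between CTdisp 7d and CT 7d by limma, with 872 probes at an unadjusted p below 0.05 and a median log2 fold change of 0.0257. EC50 against CTdisp 7d gave 1955 DEGs (8.43%), 1292 higher (5.57% of all probes) and 663 lower (2.86%), of which 220 were also among the 414 of EC20 against CT 7d with the same sign and 1 with the opposite sign. The 220 made up 11.3% of the EC50 list and 53.1% of the EC20 list. Of the 414, 385 had the same sign in EC50 against CTdisp 7d (93.0%, against 67.6% of all probes). Across the 23179 probes the log2 fold changes of both comparisons had a Pearson correlation of 0.446 and a Spearman correlation of 0.433, as a description, since probes are no replicates and all arrays were normalized together. With the controls exchanged, EC20 against CTdisp 7d gave 280 DEGs (1.21%), 141 higher (0.608%) and 139 lower (0.600%), of which 176 were among the 1745 of EC50 against CT 7d with the same sign and 0 with the opposite sign, which was 62.9% of the EC20 list and 10.1% of the EC50 list. The Pearson correlation was then 0.551 and the Spearman correlation 0.531.

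**Figure D3:**
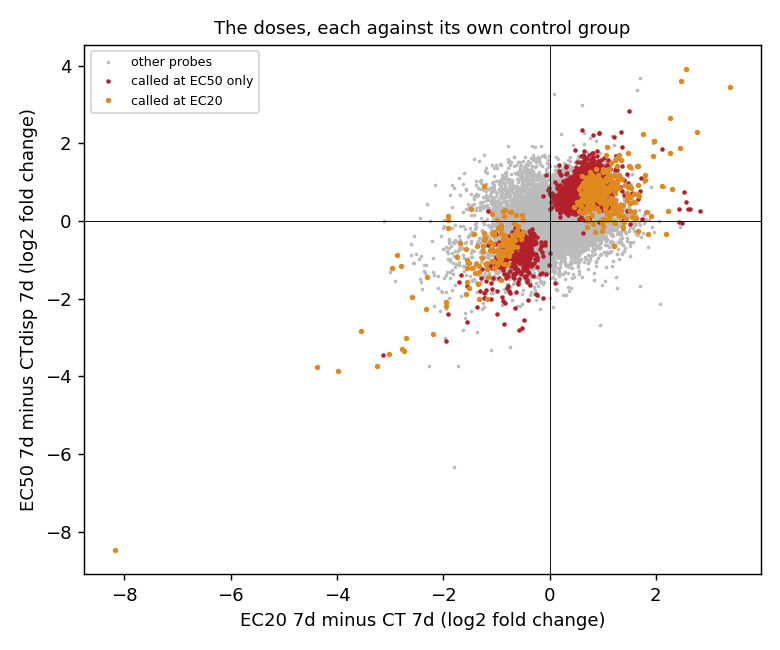
Log2 fold change of EC20 against CT 7d (x axis) and of EC50 against CTdisp 7d (y axis), with no array in common, for each of the 23179 probes. Orange marks the 414 DEGs of EC20 and red the further DEGs of EC50, both against CT 7d, and 385 of the orange points have the same sign on both axes.

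EC50 was then set against EC20 directly, probe by probe. By limma, 0 of 23179 probes (0%) differed between the doses, with a smallest adjusted p of 0.772, while 1318 had an unadjusted p below 0.05, 773 of them higher and 545 lower at EC50. The methods' t-test gave 0 after adjustment and 1841 before it, but it also called only 1 probe for EC50 and 0 for EC20 against CT 7d, so its 0 says little about the doses. By limma there was 1 call without EC50 replicate 2 and there were 4 without EC50 replicate 3. The median difference was 0.0511 on the log2 scale, the middle part of the probes lay between -0.148 and 0.229 (first and last quartile), and the extremes were -2.56 and 2.49. The sign of the median depended on the scaling. It was 0.00947 after Quantile, -0.000596 after Median, -0.00537 after 75th percentile, -0.137 after MedianCD and -0.291 after spike-in scaling. A median probe had a 95% interval of ± 0.579 about its difference. For 15832 probes (68.3%) the whole 95% interval of the difference lay within 2-fold in either direction, and for 22557 (97.3%) the difference itself did. Among the 311 DEGs of both doses, the interval lay within 2-fold for 267 (85.9%). Among the 1434 called at EC50 only it did so for 1138 (79.4%), and for 249 of them (17.4%, against 5.69% of all probes) the dose difference had an unadjusted p below 0.05. Among the 103 called at EC20 only, 40 (38.8%) had such a p. Since these sets were chosen by 1 dose, such shares are raised by the choice, and a DEG at 1 dose only was not shown to differ between the doses.

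The size of the change was larger at EC50 for 211 of the 414 EC20 DEGs (51.0%), a list chosen by EC20, and for 1611 of the 1745 EC50 DEGs (92.3%), a list chosen by EC50. Over all probes it was larger at EC50 for 56.7%. Of the 311 common DEGs, 211 (67.8%) changed more at EC50. These shares are for SVCD only, and the median difference between the doses did not keep its sign under every scaling. For the probes named above, EC50 minus EC20 was 1.14 (95% interval -0.45 to 2.72) for CUST_10724_PI427420766_b, 0.51 (-0.86 to 1.89) for CUST_24211_PI427420766_b, -0.44 (-1.78 to 0.91) for CUST_27080_PI427420766_b, and -0.70 (-2.38 to 0.97) for CUST_31050_PI427420766_b on the log2 scale. For CUST_16326_PI427420766_b it was 0.80 (-0.36 to 1.96) and for CUST_4770_PI427420766_b -0.59 (-2.08 to 0.89). All 6 intervals included 0 and reached beyond a 1.5-fold difference, so neither equality nor a dose effect was shown for these probes.

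The 4 probes named for the dose difference, the 2 of the smallest p in each direction among those well above background on all 6 arrays and with no outlier spot, did not pass the test. By p they ranked 1, 2, 4 and 16 of all probes in the order given here. CUST_50876_PI427420766_b, for the single read GYUW2K402GW4EW, read 10.49, 10.63 and 10.37 at EC50, against 8.64, 9.39 and 9.50 at EC20, without overlap. The difference was 1.32 (95% interval 0.73 to 1.92) with an unadjusted limma p of 5.63e-05 and an adjusted p of 0.772. The CT 7d arrays, at 10.85, 10.33 and 10.04, lay near EC50, and EC20 was a DEG against them (-1.23, limma adjusted p = 0.021). The CTdisp 7d arrays, at 9.56, 9.69 and 9.53, lay just above EC20. CUST_20100_PI427420766_b, for contig11175, read 6.67, 5.68 and 6.71 at EC50, against 5.72, 5.60 and 5.12 at EC20, with EC50 replicate 2 among the EC20 values. The difference was 0.88 (0.46 to 1.29, limma adjusted p = 0.772), and without EC50 replicate 2 it was 1.34 with a limma adjusted p of 0.00138. CUST_18545_PI427420766_b, for contig12596, read 3.84, 5.04 and 3.89 at EC50, against 5.57, 5.76 and 5.94 at EC20. Its difference was -1.50 (-2.22 to -0.77, limma adjusted p = 0.772), and the CT 7d arrays read 4.44, 5.01 and 5.43, with a mean between those of the doses. CUST_59504_PI427420766_b, for the single read GYUW2K401B2UKY, read 12.15, 8.66 and 12.30 at EC50, against 12.25, 12.56 and 12.45 at EC20. Its difference of -1.39 (-2.17 to -0.61, limma adjusted p = 0.772) rested on EC50 replicate 2, the array of the other scanner, and was -0.07 without it.

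**Figure D4:**
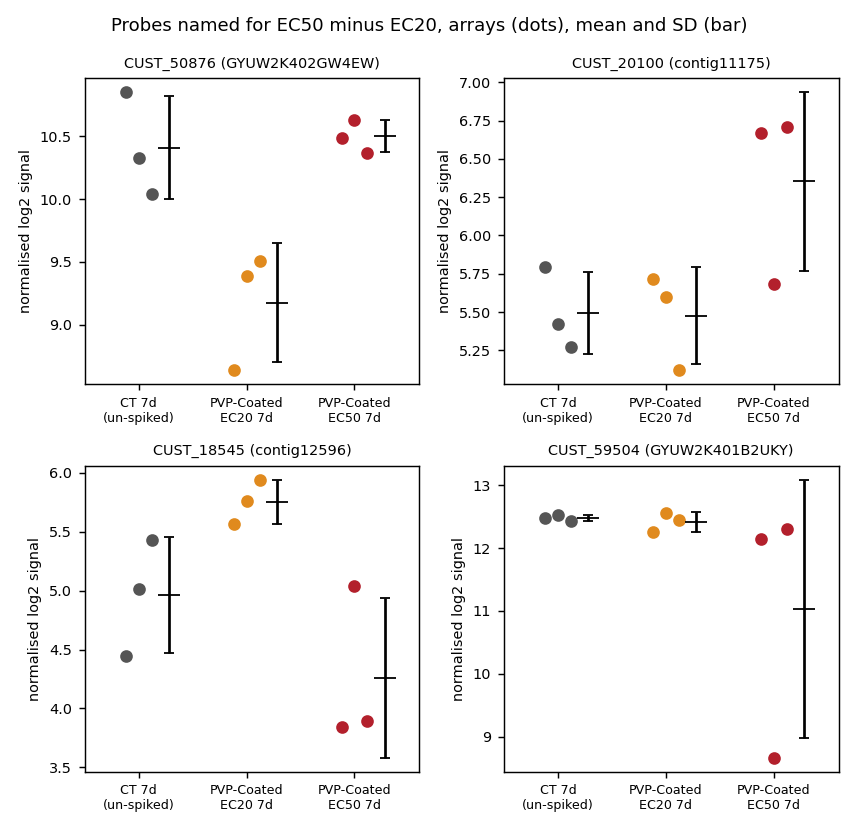
Normalised log2 signal (y axis) on each array of CT 7d, EC20 and EC50 (x axis) for the 4 probes named for EC50 minus EC20, with dots for arrays and a bar for the mean and SD (n = 3). None passed the test, and in the panel of CUST_59504_PI427420766_b a single EC50 array, at 8.66, lies apart from the others.

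The DEGs were described by the kind of transcript and by signal. At EC50, 1003 of 11999 single-read probes were DEGs (8.36%) and 742 of 11180 contig probes (6.64%), against 7.53% of all. At EC20 these were 236 (1.97%) and 178 (1.59%), against 1.79% of all. Single-read probes were over-expressed in 78.4% of their EC50 DEGs and contig probes in 65.2%, and at EC20 in 74.2% and 53.9%. By mean signal over all 60 arrays, the DEGs at EC50 were 3.05% of the dimmest 5795 probes, 7.75% of the next, 11.7% of the 5794 in the third group and 7.58% of the brightest 5795. At EC20 the shares were 1.12%, 2.30%, 2.55% and 1.17% from the dimmest to the brightest. The order of single reads and contigs turned in the brightest probes at EC50, where single reads were over-expressed in 64.2% of DEGs and contigs in 71.9%, and DEGs made up 7.31% of single-read and 7.85% of contig probes. In the third group at EC20, DEGs made up 2.29% of single-read and 2.99% of contig probes. The over-expressed share turned in the dimmest group at EC20, with 74.3% of 35 single-read DEGs and 93.3% of 30 contig DEGs. The log2 fold changes had a median SE of 0.404 in the dimmest group, 0.297 and 0.244 in those between, and 0.200 in the brightest, so that a given change is harder to call for a dim probe. The brightest group had the smallest error, yet a lower share of DEGs than the group below it at both doses.

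**Figure D5:**
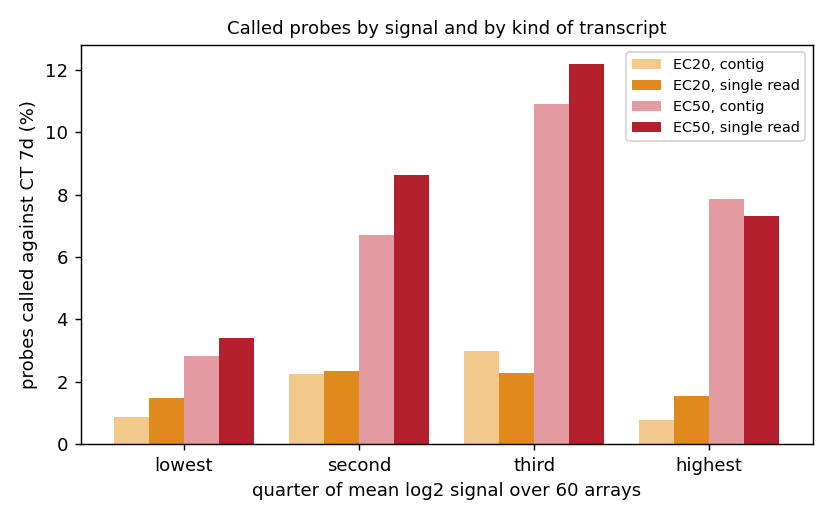
Share of probes that were DEGs against CT 7d (y axis, %) at EC20 and EC50, for contig and single-read probes, in 4 equal groups of probes by mean log2 signal over the 60 arrays (x axis, dimmest to brightest). The share at EC50 is highest in the third group, where it is 10.9% for contigs and 12.2% for single reads.

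Probes below background on some arrays fall outside the filter, and were described by detection only. Probes inside the filter were counted here too. Over all 43750 gene probes, 1507 (3.44%) were well above background on all 3 EC50 arrays and on no CT 7d array, and 4 (0.00914%) on all 3 CT 7d arrays and on no EC50 array. At EC20 the counts were 1498 (3.42%) and 1 (0.00229%). Of the gained probes, 728 at EC50 and 751 at EC20 were inside the filter, and thus also among the probes tested by limma. Soil with dispersant, without silver, gave 762 (1.74%) and 0 against CT 7d, and the CT 7d arrays had the lowest share of probes well above background among these groups. Set against CTdisp 7d, whose arrays had 55.8% to 61.8% of probes well above background, EC50 gave 177 probes (0.405%) and 37 in the other direction, and EC20 gave 136 (0.311%) and 15. Of 869 probes gained at both doses against CT 7d, 369 were also seen on all 3 CTdisp 7d arrays and 29 on none of them. For a bound on the change, an undetected array took the higher of the probe's signal and its own lowest signal well above background. Against CT 7d this bound exceeded 2-fold for 47 of the 1507 gained probes at EC50 and 62 of the 1498 at EC20. It did so for 9 of the 762 with dispersant, and for the 4 lost at EC50 and 1 at EC20. The lowest log2 signal well above background was 3.82 to 3.98 in CT 7d and 2.77 to 3.06 at EC20. At EC50 it was also below CT 7d, down to 2.55. The part of the arrays' brightness in these counts was not tested.

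The probe with the largest loss of detection at EC50 against CT 7d was CUST_12233_PI427420766_b, for contig17946, which the filter had left out. Its log2 signals were 1.25, 1.74 and 0.60 at EC50 and 0.91, 2.89 and 2.87 at EC20, not well above background on any of the 6, against 7.33, 5.73 and 6.55 in CT 7d. CTdisp 7d, at 5.87, 6.34 and 6.62, was like CT 7d. The signal was at least 13.5-fold lower at EC50 and at least 12.3-fold lower at EC20. For these bounds each exposed array was taken at the probe's signal or at the array's lowest signal well above background, whichever was higher. It was the 1 probe lost at both doses. Against CTdisp 7d the largest bound was that of another probe, CUST_41241_PI427420766_b, for the single read GYUW2K401B1CHN, which was chosen after its values were seen. It read 1.34, 2.77 and 2.07 at EC50, against 7.24, 11.1 and 11 in CTdisp 7d, at least 122-fold lower. It was well above background on 1 of 3 EC20 arrays, and on 2 of 3 CT 7d arrays, with the other at 3.71, so the silver-free arrays of CT 7d themselves did not agree on it. The probe with the largest gain against CT 7d was CUST_4508_PI427420766_b, for contig24912, at 3.80, 11 and 4.57 at EC50, against 4.01, 2.99 and 3.05 in CT 7d. Its bound of at least 5.65-fold higher rested on EC50 replicate 2 and was 1.17-fold without it, and its limma adjusted p at EC50 was 0.0133.

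Uncoated particles (the groups Ag-NPs Non-Coated, 3 arrays at each dose) were set against the coated ones at the same effect levels and time. The PVP-Coated EC20 arrays were scanned on 1 day. The Non-Coated EC20 arrays were scanned on different days, replicate 1 by the other scanner. The structural difference is the polymer shell, and the concentrations were matched by effect on reproduction. By limma, 0 of 23179 probes (0%) differed in an F-test over both doses, and 784 had an unadjusted p below 0.05. The count of calls was also 0 with slide or with scan day as a fixed block. This count depended on the background correction, since normexp correction of the median spot signal gave 13256 calls, and the cause was not tested. Taken singly, the difference had 0 DEGs at EC50 with 658 unadjusted, and 0 at EC20 with 962 unadjusted, 2 comparisons in all with p adjusted over the probes of each. The whole 95% interval of the difference lay within 2-fold for 16372 probes (70.6%) at EC50 and for 16211 (69.9%) at EC20; for the others the interval reached 2-fold or more. Against the same CT 7d arrays, CUST_31050_PI427420766_b had a log2 fold change of -8.88 with the coating and -7.85 without it at EC50, and of -8.18 and -7.69 at EC20. CUST_10724_PI427420766_b had 4.53 with the coating and 4.04 without it at EC50, and 3.39 and 4.46 at EC20. Without Non-Coated EC20 replicate 3 the F-test called 148 probes, and without PVP-Coated EC50 replicate 3 or Non-Coated EC20 replicate 2 it called 1.

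The effect of the coated particles at 7 d was also set against their effect at 3 d, each with the un-spiked soil of its own time. By the limma F-test over both doses, the effect differed for 3138 of 23179 probes (13.5%). Taken singly there were 4857 probes at EC50 (21.0%), of which 46 (0.198%) had a higher and 4811 (20.8%) a lower log2 fold change at 7 d than at 3 d. At EC20 there were 724 (3.12%), 21 higher (0.0906%) and 703 lower (3.03%). The median change of the effect over all probes was -0.421 at EC50 and -0.247 at EC20. After Median normalization the F-test called 278 probes and the doses 581 (78 higher) and 22 (7 higher), with medians of 0.0088 and 0.024. The count of 3138 thus holds a shift of all probes, and it depended on single arrays. It was 1331 without EC50 7d replicate 2, 977 without CT 7d replicate 2, 1996 and 1666 without EC50 3d replicate 1 or 3, and 1220 without CT 3d replicate 3. With slide as a fixed block the F-test called 3673 probes, and with scan day as a fixed block 2929. With normexp background correction the order of the doses turned, with 101 calls at EC50 and 11054 at EC20. Of the 1745 EC50 DEGs of 7 d, 1036 (59.4%) were DEGs at 3 d with the same sign and 184 with the opposite sign. At 3 d 10931 probes (47.2% of all) were called at EC50, 10724 higher (46.3%) and 207 lower (0.893%). Called or not, the EC50 DEGs of 7 d had the same sign at 3 d in 77.4%, against 60.8% of all probes. Of the 414 EC20 DEGs of 7 d, 105 (25.4%) were DEGs at 3 d with the same sign and 18 with the opposite sign, where 3857 probes (16.6% of all) were called at 3 d, 3801 higher (16.4%) and 56 lower (0.242%). They had the same sign at 3 d in 73.9%, against 58.5% of all probes. The comparisons of 7 d and 3 d share no arrays.

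Among the named probes, CUST_16326_PI427420766_b had log2 fold changes of -3.58 at EC50 and -4.38 at EC20 at 7 d, against -0.24 and -0.03 at 3 d. Its change of effect had a limma adjusted p of 0.000866. The named probes were chosen by their 7 d values, which also enter this test, and the choice tends to raise such differences. CUST_31050_PI427420766_b was lower at both times, with -8.88 and -8.18 at 7 d, against -4.27 and -3.46 at 3 d (limma adjusted p of the change = 0.00513). CUST_4770_PI427420766_b had -3.61 and -3.01 at 7 d, against -2.02 and -2.07 at 3 d, and the change did not pass (limma adjusted p = 0.552). CUST_10724_PI427420766_b had 4.53 and 3.39 at 7 d, against 1.52 and 0.23 at 3 d, where neither value passed the test, and the change of effect had a limma adjusted p of 0.0626. CUST_27080_PI427420766_b had 2.33 and 2.77 at 7 d, against 3.07 and 1.01 at 3 d, of which the EC50 value passed (limma adjusted p = 0.000241). Its change of effect did not pass (limma adjusted p = 0.136). CUST_24211_PI427420766_b had 3.08 and 2.57 at 7 d, against 1.73 and 0.58 at 3 d, of which the EC50 value passed (limma adjusted p = 0.0339). Its change of effect did not pass either (limma adjusted p = 0.318).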

How the data were processed

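The authors scanned 60 custom Agilent 4 × 44k arrays with 1 colour and deposited, per the file headers, an intensity for each spot after background correction by Agilent Feature Extraction 10.7.3.1, with flags for detection and outliers. From these intensity values, log2 was taken, and 23179 of 43750 gene probes were kept, those that the scanner software marked as positive and significantly above background on each of the 60 arrays. Outlier spots (308 in 299 probes) were set missing. Normalization followed the study's SVCD (standard-vector condition-decomposition), written anew: arrays are aligned within each group of 3, and group means are then aligned over probes with no detected variation between groups (6587 here). MedianCD does the same with medians. limma 3.58.1 in R 4.3.3 was fitted with a mean for each of 20 groups over all 60 arrays (40 residual degrees of freedom), two-sided, with Benjamini-Hochberg adjustment over all kept probes. The scripts were tested on simulated data. The number of arrays, 3 a group, limits the precision. The labels number the 3 arrays of a group as replicates, and the study's methods describe them as biological replicates.

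The arrays, comparisons and lists were chosen with earlier results of these data known. Named probes were, for EC20 against CT 7d, EC50 against CT 7d and EC50 minus EC20, the 2 largest log2 fold changes in each direction among DEGs that were well above background on all 6 arrays, had no outlier spot and did not overlap between groups. Where none passed, the 2 smallest p-values in each direction were named under the same conditions on signal and outlier spots, overlap allowed, and to these were added the probes with the largest gain and loss of detection at EC50. The planned lists of stress-response genes were not used here, as the files hold no gene names. The authors' series matrix has these intensity values in rounded form, with a largest difference of 0.498%, and was used as an alternative. The normexp alternative (offset 50) used the median spot signal.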

Additional observations from a re-analysis of the deposited data

Results flagged for a closer look

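The effect of the coated particles differed between 7 and 3 d by the limma F-test in 3138 probes, with 4857 probes for EC50 and 724 for EC20 taken singly. Among probes outside the filter on detection, 779 were well above background on all 3 EC50 arrays and on no CT 7d array, and 747 on all 3 EC20 arrays and on no CT 7d array. Soil with dispersant gave 308 such probes against CT 7d.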

How the results depend on the processing

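For EC20 against CT 7d, the 414 DEGs became 1196 after MedianCD (91.8% over-expressed), 11 with spike-in scaling, 161 without a filter on dim probes, 647 with only probes well above background on the 9 arrays, 2 with only the compared arrays in the model, 625 with slide as a random block and 0 by the methods' t-test (3678 unadjusted). With CT 7d and CTdisp 7d together as the control, chosen after seeing the data, there were 1032. Normexp background correction gave 488, of which 3.89% were over-expressed. For EC50 against CT 7d, the 1745 became 84 with spike-in scaling (5.95% over-expressed), 305 with normexp (31.5%), 3621 without a filter (91.2%), 320 with only the compared arrays, 3852 and 3729 with slide as a fixed and a random block, 2644 with scan day as a block, 1 by the methods' t-test and 2963 with both controls together. The count of EC50 minus EC20 became 17 without a filter, 1 with the filter on the 9 arrays only and 2 with slide as a fixed block. That of PVP-Coated minus Non-Coated became 13256 with normexp and 1 without a filter. The 3138 probes with a change of effect became 6870 after MedianCD, 278 after Median, 262 after Quantile, 344 after 75th percentile and 6205 after spike-in scaling, 11535 with normexp and 173 without a filter. The cause of these changes was not tested.

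With 1 array left out in turn, the counts ranged from 123 to 405 at EC20, from 727 to 3050 at EC50, from 0 to 4 for the dose difference, from 0 to 148 for the coating and from 977 to 4301 for time. Replicate numbers recur across groups, but same-numbered arrays of the 3 groups had deviations that correlated between -0.227 and 0.294, so they were not taken as pairs. With the replicate block the 5 counts were 485, 1833, 0, 0 and 3272. Named probes kept their direction in all 292 recomputed values, of which 26 no longer passed the test and 4 newly did. The 26 were all in comparisons of a dose with the control, and the 4 in the dose difference, where no named probe had passed. These probes were chosen for extreme values in these same data, so a kept direction is no separate evidence. Of the 26, 10 were for CUST_10724_PI427420766_b and 9 for CUST_27080_PI427420766_b at EC20. Detection depends on signal over background, which was lowest on the CT 7d arrays, so counts of gained probes cannot be read without those of CTdisp 7d.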
